A study of Mus musculus with 8 samples.

Results

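The Hippo pathway restrains the paired transcriptional coactivators YAP, encoded by Yap1, and TAZ, encoded by Wwtr1. The kinases LATS1 and LATS2 phosphorylate both, which keeps them in the cytoplasm. Unphosphorylated YAP and TAZ enter the nucleus and activate genes through the TEAD factors, which bind DNA. Secreted matricellular proteins of the CCN family, CCN1 (also called CYR61) and CCN2 (also called CTGF), are among the best known targets, and in the heart the pathway is known for its control of cardiomyocyte proliferation and of valve mesenchyme. The members described here are the 10 genes Yap1, Wwtr1, Tead1, Tead2, Tead3, Tead4, Lats1, Lats2, Ccn1 and Ccn2. They were taken as every probe set annotated with a single symbol among these names, which gave 24 probe sets of the 45101 on the array. One further probe set names Lats2 together with another gene and was left out.

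RNA came from the atrioventricular canal, where the valves of the mouse heart form, and 10 dissected canals were pooled for each of 8 arrays. The 4 control pools are given as Gata4flox/flox, and the 4 mutant pools as Gata4flox/flox; T2Cre+, also named Gata4T2del. T2Cre is Cre recombinase driven by the promoter of Tie2, so deletion is directed to endothelium and to the mesenchyme that arises from it, while the canal muscle keeps Gata4. All mice shared a mixed C57BL6/129 background, no label gives Cre in the controls, and the sources used here do not state the age of the embryos. The design text states that 2 control samples were left out for noise without naming them. Nothing says which of the 4 control arrays in the table those are, so all were kept, and key values are also given without controls 2 and 3. Nothing in the sources used here says that pools of a group came from separate litters, so p-values measure the spread between these pools.

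Controls 2 and 3 stood apart from the other arrays. The limit above which a signal was called above background, set from bacterial control probe sets, was 316 for the first and 270 for the second; controls 1 and 4 had limits of 97.5 and 51.1, and mutant arrays had 21.4 to 65.4. Their weights in the fit were 0.302 and 0.35, against 0.867 to 2.80 on the other 6 arrays. On its brighter probe set Gata4 read 11.15, 11.07, 11.42 and 11.38 (log2, controls 1 to 4) against 11.10, 11.28, 11.18 and 10.93 (mutants 1 to 4), and the groups overlapped. Its dim probe set was above background on 2 control and 4 mutant arrays and changed by 0.98 (SE 0.45, adjusted p = 0.388). The place of both relative to the deleted part is not stated, and the muscle keeps the gene, so these values do not check the deletion.

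Markers of the cell types of the canal were present and some moved with genotype. All 9 cardiomyocyte markers and all 8 cushion mesenchyme markers were above background on all 8 arrays. The 8 mesenchymal markers all had negative changes, of which 0 passed, 6 had an unadjusted p under 0.05 and 5 did not overlap between groups. Of all tested probe sets, 5.33% had such a p as lower and 7.31% as higher. Groups did not overlap for 3.19% as lower and 4.44% as higher. The mean log2 value of the mesenchymal markers, each centred on its mean over the arrays, was 0.24 to 0.34 in the controls and -0.54 to -0.02 in the mutants. The log2 of their summed signal was 15.27 to 15.49 and 15.09 to 15.30. Of 10 epicardial markers 8 were tested and all 8 had positive changes, of which 0 passed, 6 had an unadjusted p under 0.05 and 1 did not overlap. Their log2 summed signal was 12.58 to 12.80 in the controls and 12.87 to 13.53 in the mutants, with the highest values on mutants 3 and 4. Cardiomyocyte markers had 8 positive changes of 9, also with 0 passing, 6 at an unadjusted p under 0.05 as higher and 2 that did not overlap. Their log2 summed signals were 16.45 to 16.69 and 16.73 to 16.90. Of 9 endothelial markers 6 had positive and 3 negative changes, with a median of 0.19. An unadjusted p under 0.05 was reached by 2 as higher and 1 as lower, and 3 did not overlap. Tek alone passed, as lower, and the list's log2 summed signal was 13.47 to 13.78 in the controls and 13.50 to 13.62 in the mutants. No marker of these lists was at 0 on any array. All 7 tested erythroid markers had negative changes, with a median of -0.20, of which 0 passed and 1 had an unadjusted p under 0.05. The macrophage list and the foregut and liver list had 2 tested markers each, and 0 passed. Centred as above, the foregut and liver markers averaged 1.94 on mutant 1 and 1.14 on control 4, against -1.11 to 0.17 on the other arrays. In pooled tissue, fewer cells of a type and less RNA per cell cannot be told apart, and the part of these shifts in the values below was not tested.

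No member of the pathway passed the threshold between mutant and control canals. Values below are log2(signal + 16) after quantile normalization unless called signal, and a change is mutant minus control with the standard error (SE) of the weighted fit. Of 24 member probe sets, 20 were tested and 0 had an adjusted p under 0.05, where 0.0444% of all 27022 tested probe sets did, 0.0259% as higher and 0.0185% as lower. Positive changes numbered 13 of 20, against 53.8% of all tested probe sets. An unadjusted p under 0.05 was reached by 5 of the 20, all with positive changes, against 7.31% of all probe sets in that direction and 5.33% in the other. Without controls 2 and 3, 0 members passed (0.0074% of all probe sets did) and 3 had an unadjusted p under 0.05 (6.54% did). These 5 belonged to Wwtr1, Lats2 (2 probe sets), Ccn1 and Ccn2, and 3 of them were above background on only 1 or 2 of the 4 control arrays. The smallest adjusted p among members was 0.236.

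The 12 member probe sets above background on all 8 arrays cover 8 of the 10 genes. Among them 6 changes were positive and 6 negative, with a median of 0.02, against a median of 0.03 over all tested probe sets. The other 12, which fell below background on at least 1 array, had a median control SD of 1.03 and a median mutant SD of 0.52. In the 12 bright ones these medians were 0.24 and 0.14. Tead3 and Tead4 had no probe set above background throughout.

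**Figure D1:**
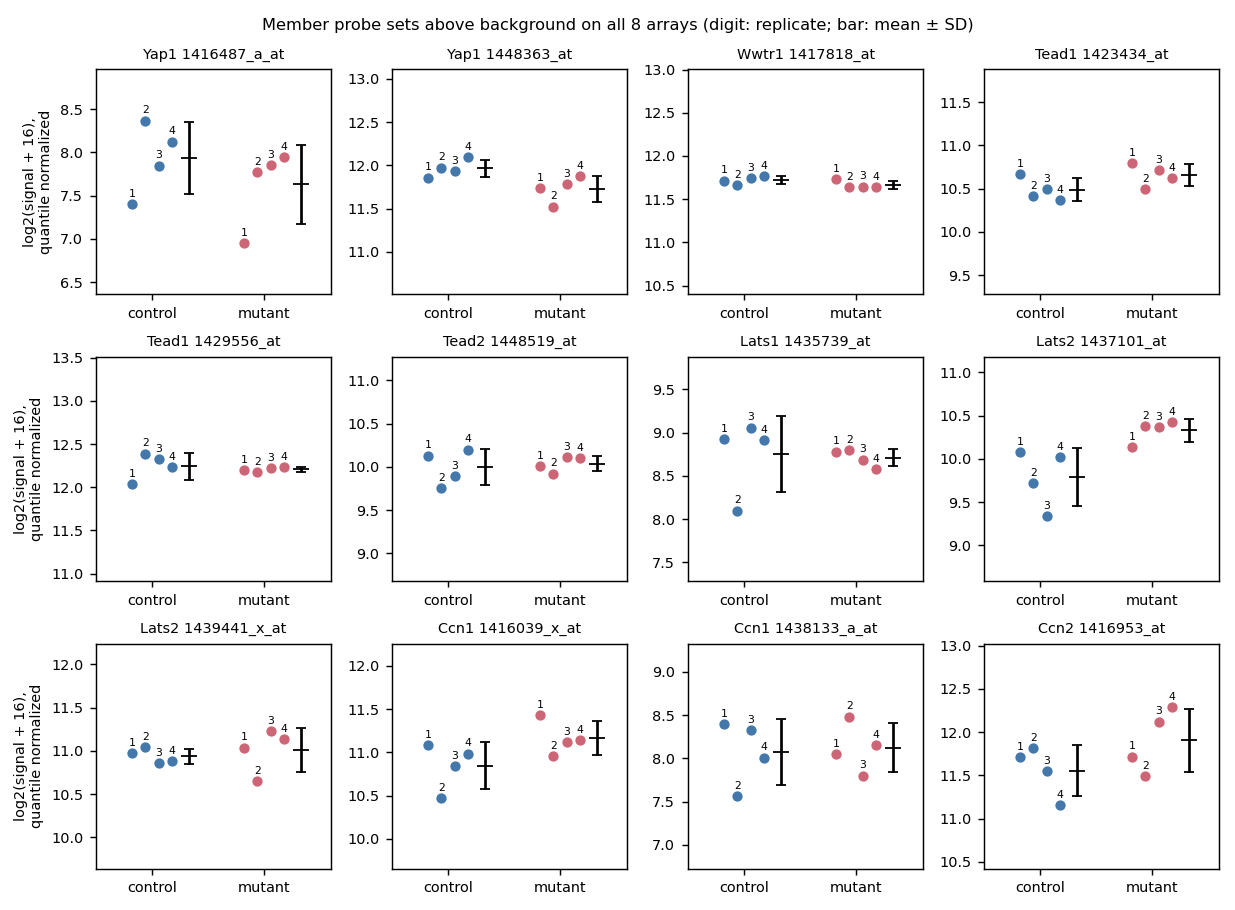
Quantile normalized log2(signal + 16) of the 12 member probe sets above background on all 8 arrays, with controls in blue and mutants in red, digits for the replicate and bars for mean ± SD (n = 4). Every panel spans the same height, and groups fail to overlap only for Lats2 1437101_at.

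The coactivator Yap1 was measured by a bright and a dim probe set. The bright one had 11.86, 11.98, 11.94 and 12.10 in controls 1 to 4 and 11.74, 11.52, 11.79 and 11.88 in mutants 1 to 4. Mutants 1 to 3 lay below every control, and mutant 4 lay just above control 1. Its change was -0.18 (SE 0.09, 95% interval -0.37 to 0.02, adjusted p = 0.428), so levels from 0.776 to 1.01 of control were within the interval. With each array centred on its median, a scaling that moved the median of all tested probe sets by 1.13, the same probe set lay 0.41 above that median. The dim Yap1 probe set ranged from 7.40 to 8.37 in the controls and from 6.95 to 7.95 in the mutants. Its change was -0.05 (SE 0.32, adjusted p = 0.961).

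Its paralog Wwtr1 had the smallest control SD of all member probe sets on its bright one. Controls 1 to 4 read 11.72, 11.66, 11.74 and 11.76, and mutants 1 to 4 read 11.73, 11.64, 11.65 and 11.64. Group SDs were 0.04 and 0.05, and the groups overlapped. The change was -0.07 (SE 0.08, adjusted p = 0.725), with an interval from 0.854 to 1.07 of the control level.

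Both dim Wwtr1 probe sets pointed upward. On 1437155_a_at, which had the smallest p of all members, controls 1 to 4 read 4.78, 5.80, 6.45 and 7.13 and mutants 1 to 4 read 7.06, 7.97, 7.54 and 7.69. Control 4 was the only control above background and lay above mutant 1, so the groups overlapped. The change was 1.77 (SE 0.49, adjusted p = 0.236) and 1.67 without controls 2 and 3 (adjusted p = 0.626). Without control 3 it was 2.24 and passed (adjusted p = 0.0432), as did 0.418% of all tested probe sets. The other, 1417817_a_at, was above background on 2 control and 4 mutant arrays. It changed by 0.57 (SE 0.45, adjusted p = 0.616) and by 0.10 without controls 2 and 3.

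TEAD1, the TEAD factor best known from heart and skeletal muscle, gave the narrowest intervals of the DNA-binding partners. Its brightest probe set had 12.03, 12.39, 12.33 and 12.23 in controls 1 to 4 and 12.20, 12.18, 12.22 and 12.23 in mutants 1 to 4. All mutant values fell inside the control range. The change was 0.05 (SE 0.07, adjusted p = 0.798), an interval of 0.931 to 1.15 of control. The second Tead1 probe set read 10.49 ± 0.13 and 10.65 ± 0.13 (SD, n = 4 each), a change of 0.14 (SE 0.12, adjusted p = 0.633).

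Tead2, the member of the family first active in the early embryo, read 10.13, 9.75, 9.90 and 10.20 in controls 1 to 4 and 10.01, 9.92, 10.11 and 10.10 in mutants 1 to 4. The mutant values again lay within the control range, and the change was -0.01 (SE 0.13, adjusted p = 0.977, interval 0.818 to 1.20 of control). With median-centred arrays it lay 0.47 above the median of all probe sets.

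Tead3 was dim and its spread wide. The single probe set read 6.14, 7.87, 7.26 and 6.99 in controls 1 to 4 and 7.16, 7.08, 4.76 and 6.36 in mutants 1 to 4. It was below background on control 1 and on mutant 3, the lowest array. The change was -0.73 (SE 0.63, adjusted p = 0.644) and 0.04 without mutant 3, so the sign of the weighted fit turned on leaving out this array. Controls 2 and 3, the highest arrays here, had the lowest weights in the fit of all arrays. With median-centred arrays the change was -2.27 and passed (adjusted p = 6.95e-06), as did 37.4% of all tested probe sets. The authors' own scaling gave -1.24 (adjusted p = 0.289).

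Tead4, best known for its need in the trophectoderm before implantation, was close to the detection limit. One probe set was above background on 0 control arrays and 1 mutant array, and the other on 1 and 2. Both had means in the lowest 40% of the array and were left out of the fit. The first averaged 5.71 ± 0.75 in the controls and 5.31 ± 0.83 in the mutants (SD, n = 4 each; exact permutation p = 0.486, two-sided), and the second 6.26 ± 0.51 and 6.33 ± 0.83 (exact permutation p = 0.83).

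**Figure D2:**
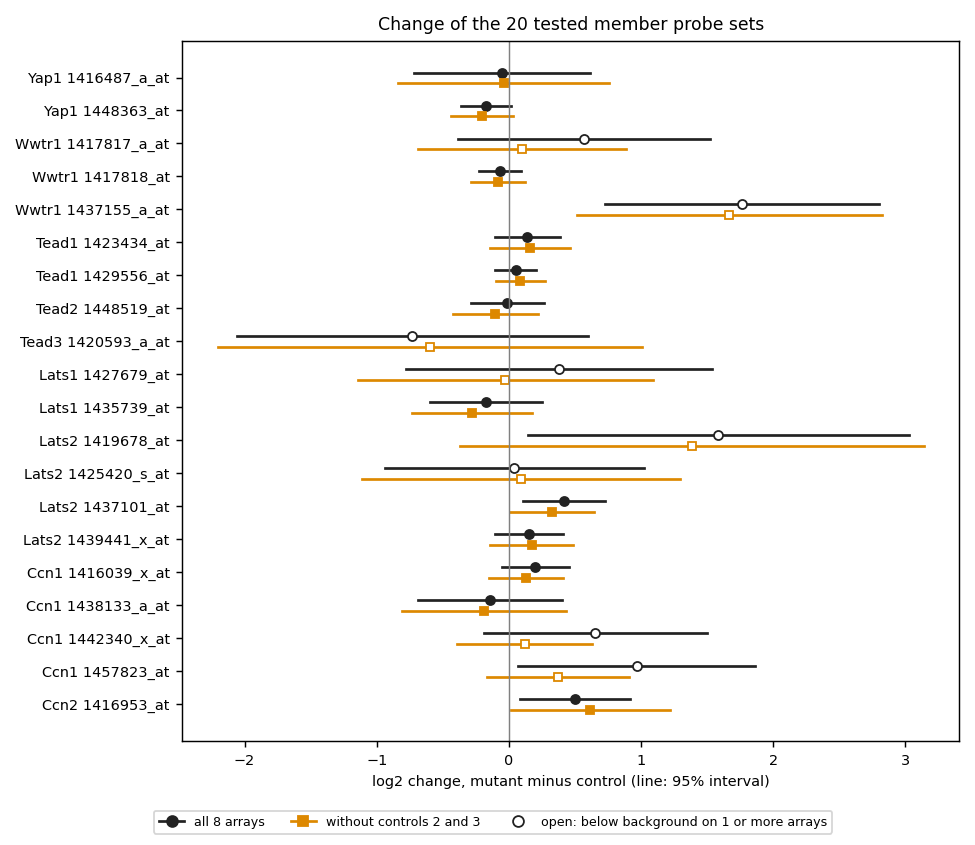
Log2 change, mutant minus control, with 95% interval for the 20 tested member probe sets, from all 8 arrays (black circles) and without controls 2 and 3 (orange squares); open symbols mark probe sets below background on at least 1 array. The Wwtr1 probe set 1437155_a_at lies farthest right at 1.77, and the intervals of Tead1 1429556_at and Wwtr1 1417818_at are among the narrowest.

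The kinase gene Lats1 read 8.93, 8.10, 9.06 and 8.92 in controls 1 to 4 and 8.78, 8.80, 8.69 and 8.58 in mutants 1 to 4 on its bright probe set. Control 2 was low, and the other 3 controls lay above every mutant. The change was -0.17 (SE 0.20, adjusted p = 0.741) and -0.28 without controls 2 and 3 (adjusted p = 0.850). Its dim probe set was above background on 2 arrays of each group and changed by 0.38 (SE 0.55, adjusted p = 0.799), and by -0.03 without controls 2 and 3.

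Lats2, both a kinase of the pathway and a target of YAP and TEAD, had the only bright probe set whose groups did not overlap. On 1437101_at controls 1 to 4 read 10.08, 9.72, 9.34 and 10.02, and mutants 1 to 4 read 10.14, 10.38, 10.37 and 10.43. Every mutant lay above every control, by 0.06 at the closest pair, control 1 and mutant 1. Groups failed to overlap in this direction for 4.44% of all tested probe sets and in the other for 3.19%, and among the members for 3, all higher. The change was 0.42 (SE 0.15, 95% interval 0.11 to 0.72, adjusted p = 0.292), which is 1.08 to 1.65 times control. It was 0.33 without controls 2 and 3 (adjusted p = 0.760). With control 1 left out it was 0.75 and passed (adjusted p = 0.0297), as it did at 0.69 without control 4 (adjusted p = 0.0402). Of all tested probe sets 6.27% and 6.36% passed in those fits, against 0.0444% with all arrays. With median-centred arrays it was 1.06 and passed (adjusted p = 0.00147), as did 37.4% of all tested probe sets. Controls 2 and 3, the 2 lowest, stayed in the fits without control 1 or 4. Their part in these passes was not tested.

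The brightest Lats2 probe set, 1439441_x_at, gave a smaller difference. Controls 1 to 4 read 10.97, 11.04, 10.86 and 10.88, and mutants 1 to 4 read 11.04, 10.65, 11.22 and 11.13. Mutant 2 was the lowest of all arrays here, although it was the second highest on 1437101_at. The change was 0.15 (SE 0.12, adjusted p = 0.614).

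Of the 4 dim Lats2 probe sets, 2 were tested. One of them, 1419678_at, was above background on 1 control and 3 mutant arrays and changed by 1.59 (SE 0.68, adjusted p = 0.363). The other, 1425420_s_at, changed by 0.04 (SE 0.47, adjusted p = 0.980) and lay 1.23 below the median of all probe sets with median-centred arrays. Those under the filter read 5.54 ± 1.07 and 5.79 ± 0.44 on 1419679_at (SD, n = 4 each; exact permutation p = 0.714) and 5.73 ± 0.62 and 6.51 ± 0.27 on 1426156_at (exact permutation p = 0.0857), controls first.

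**Figure D3:**
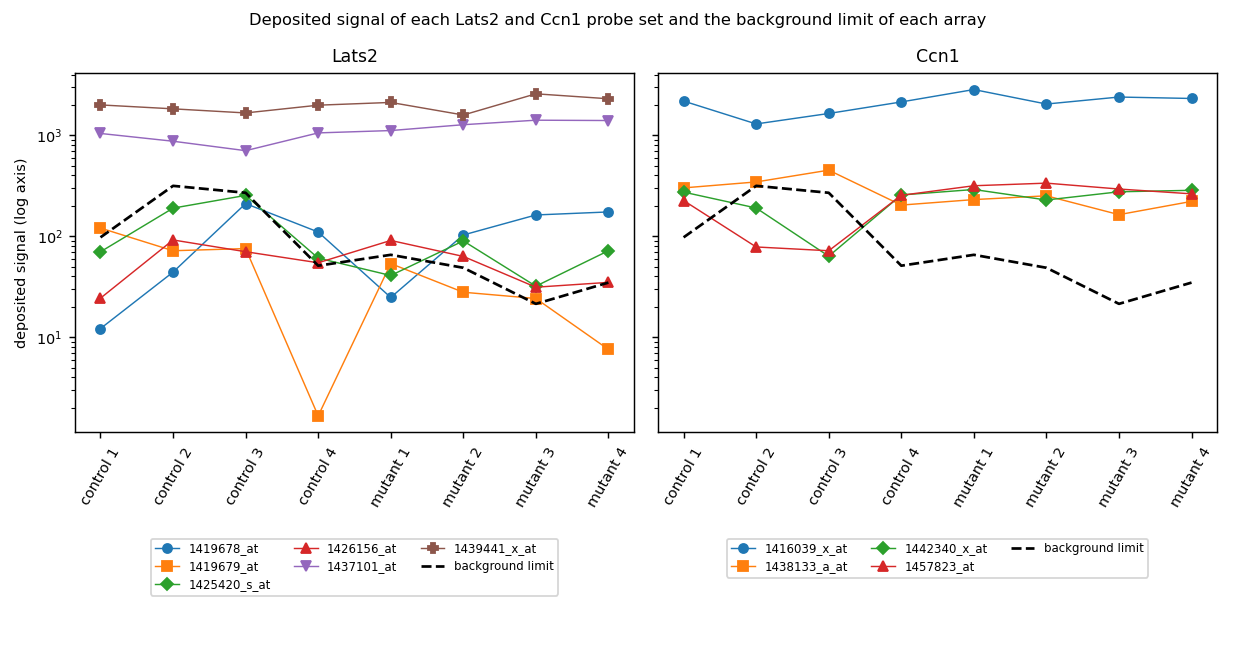
Deposited signal, on a log axis, of the 6 Lats2 and 4 Ccn1 probe sets on each of the 8 arrays, with lines joining the arrays for each probe set and the background limit of each array dashed. The limit is highest on controls 2 and 3, at 316 and 270, and the Ccn1 probe sets 1442340_x_at and 1457823_at lie below it on these arrays alone.

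Ccn1 encodes a secreted matrix protein that binds integrins. Its promoter is printed here because TEAD factors recognise the element GGAATG, read CATTCC on the other strand, and because its gene is a classic target. The 250 bases before its start (RefSeq, GRCm38.p6, chr3:145649986-145650235, minus strand) hold 1 match, in capitals, 103 to 98 bases before the start, read on the strand opposite to the gene.
Ccn1 promoter: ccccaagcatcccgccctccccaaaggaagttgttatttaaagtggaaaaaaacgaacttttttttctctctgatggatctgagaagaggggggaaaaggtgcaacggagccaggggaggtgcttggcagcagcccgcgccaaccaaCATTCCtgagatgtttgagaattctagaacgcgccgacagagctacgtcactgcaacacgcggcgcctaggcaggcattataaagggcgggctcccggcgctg
The letters GGAATG occur on 1 of the strands in 12.6% of all 32851 such windows in the RefSeq table. Of the members, 7 had windows, and 6 of these 11 windows hold a match. Yap1, Wwtr1, Tead3 and Ccn1 had a match in at least 1 of theirs. The 2 Wwtr1 windows overlap and hold the same stretch. A match describes the letters in the window and does not show binding.

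On its brightest probe set, 1416039_x_at, Ccn1 read 11.09, 10.47, 10.84 and 10.99 in controls 1 to 4 and 11.43, 10.96, 11.12 and 11.14 in mutants 1 to 4. Controls 1 and 4 lay above mutant 2, and the 2 lowest values were those of controls 2 and 3. The change was 0.20 (SE 0.12, 95% interval 0.962 to 1.37 of control, adjusted p = 0.497) and 0.13 without controls 2 and 3. The other bright probe set, 1438133_a_at, gave -0.14 (SE 0.26, adjusted p = 0.842).

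Groups did not overlap on the other pair of Ccn1 probe sets, but only 2 control arrays were above background. On 1457823_at controls 1 to 4 read 7.99, 5.41, 5.36 and 8.25 and mutants 1 to 4 read 8.48, 8.83, 8.40 and 8.34. Controls 1 and 4 lay close to the mutants, while controls 2 and 3 lay far below. The change was 0.97 (SE 0.42, adjusted p = 0.370), and 0.37 without controls 2 and 3 (adjusted p = 0.840). Without control 1 it was 2.50 (adjusted p = 0.0154), and without control 4 it was 2.36 (adjusted p = 0.0194). Its partner 1442340_x_at changed by 0.65 (SE 0.40, adjusted p = 0.50), and by 0.12 without controls 2 and 3. Left without control 1 or control 4 it changed by 2.16 and 1.90 and passed (adjusted p = 0.0191 and 0.0291). Of all tested probe sets 6.27% passed without control 1 and 6.36% without control 4. With equal weights for all arrays the changes were 1.76 for 1457823_at and 1.3 for 1442340_x_at, and neither passed (adjusted p = 0.274 and 0.306). Both are annotated to the same source sequence, so they are not independent readings.

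Ccn2 encodes connective tissue growth factor, a secreted protein that promotes matrix production. Its single probe set read 11.71, 11.82, 11.55 and 11.15 in controls 1 to 4 and 11.72, 11.49, 12.12 and 12.29 in mutants 1 to 4. Mutants 3 and 4 lay above every control, and mutants 1 and 2 lay within the control range. The change was 0.50 (SE 0.19, 95% interval 0.08 to 0.92, adjusted p = 0.343), or 1.06 to 1.89 times control. It was 0.61 without controls 2 and 3 (adjusted p = 0.760) and 0.35 without mutant 4. With median-centred arrays it was 1.02 and passed (adjusted p = 0.0019), as did 37.4% of all tested probe sets. The fit gave mutants 3 and 4 the highest weights, 2.80 and 2.50, while the plain difference of group means was 0.35 (exact permutation p = 0.229). The epicardial markers were highest on the same 2 arrays, at 13.23 and 13.53 as log2 summed signal, against 12.99 and 12.87 on mutants 1 and 2, and their part in the Ccn2 values was not tested.

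The genes upstream of LATS, listed together with the NDR kinases Stk38 and Stk38l, gave 0 calls. Among those upstream are the kinases MST1, TAOK and MAP4K4, their scaffolds SAV1 and MOB1, and membrane regulators such as NF2, KIBRA (Wwc1), FAT4 and SCRIB. Of 20 listed genes, 19 were tested on their brightest probe set, where 0.0663% of all named genes passed, and 7 had positive and 12 negative changes. Their median was -0.05, against 0.02 over all 12069 tested genes, and 2 reached an unadjusted p under 0.05, against 12.9% of all genes.

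Groups did not overlap for 5 of the 19, against 7.63% of all probe sets in either direction. They were higher in the mutants for Scrib, Wwc1 and Stk38l, which had the smallest p values of the list, and for Nf2, and lower for Mob1a. Nf2 and Mob1a are named after their values were seen. Mob1a read 10.38 ± 0.17 in the controls and 10.07 ± 0.06 in the mutants (SD, n = 4 each), a change of -0.21 (SE 0.12, adjusted p = 0.472). Nf2 changed by 0.57 (SE 0.31, adjusted p = 0.460) with 2 control arrays above background, and by 0.25 without controls 2 and 3. Its other tested probe sets went the other way, at -1.06 (SE 0.53, adjusted p = 0.412) and -0.09 (SE 0.48). Scrib, a polarity scaffold, was above background on 0 control and 4 mutant arrays, with means of 5.94 and 7.21. The mutant mean was 1.20 times the mean background limit of the control arrays, 6.95 on the log2 scale. Mutant 2, at 6.82, lay below that mean limit, so 1.20 is not a lower bound on the change. The fitted change of Scrib was 1.15 (SE 0.46, adjusted p = 0.346), with all control values below background. Wwc1 changed by 0.59 (SE 0.24, adjusted p = 0.352), and its other 2 tested probe sets by 0.75 and 1.11, while without controls 2 and 3 the first was 0.31. Left without control 1 or control 4 it changed by 1.23 and 1.24 and passed (adjusted p = 0.0265 and 0.0269), as did 6.27% and 6.36% of all tested probe sets. The NDR kinase Stk38l changed by 0.17 (SE 0.09, adjusted p = 0.450) on its brightest probe set and by -0.26 and 0.20 on its others.

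Proteins that hold YAP, TAZ or LATS in place include the angiomotins, PTPN14, the LIM proteins of the Ajuba family, and 14-3-3 proteins. All 16 genes of this list were tested and 0 passed, against 0.0663% of all named genes. The median change was -0.01 with 6 positive and 10 negative, against 53.2% positive over all named genes. An unadjusted p under 0.05 was reached by 1 as higher, against 12.9% of all named genes in either direction. Groups did not overlap for 1, and for 7.63% of all tested probe sets. The Ajuba family gene Wtip changed by 0.71 (SE 0.28, adjusted p = 0.335) and overlapped between groups. Amot changed by 0.26 (SE 0.12, adjusted p = 0.400) on its brightest probe set and by -1.51 and -0.28 on its dimmer ones. Btrc, part of the ubiquitin ligase that marks phosphorylated YAP, changed by -0.40 (SE 0.23, adjusted p = 0.479).

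Vestigial-like cofactors compete with YAP for TEAD. Of the 4 genes, Vgll1 and Vgll2 fell under the filter. Vgll4, the inhibitor of the family, read 8.85 ± 0.32 in the controls and 8.58 ± 0.17 in the mutants (SD, n = 4 each) and changed by -0.31 (SE 0.21, adjusted p = 0.539). Vgll3 changed by -0.43 (SE 0.31, adjusted p = 0.568) on its brightest probe set and by 0.02 and -0.49 on its others.

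Genes of a YAP and TAZ target signature drawn from human cancer cells, the members left out, gave 1 call among 16 tested of 19. Of all named genes 0.0663% passed on their brightest probe set. An unadjusted p under 0.05 was reached by 2 of the 16 as higher and 1 as lower, against 12.9% of all named genes. The call was Ankrd1, a muscle ankyrin repeat protein, which rose. Its brightest probe set read 13.26 ± 0.08 in the controls and 13.60 ± 0.12 in the mutants (SD, n = 4 each), a change of 0.37 (SE 0.06, adjusted p = 0.0269), and the other changed by 0.88 (SE 0.14, adjusted p = 0.0221). Without controls 2 and 3 the first was 0.38 and did not pass (adjusted p = 0.152), nor did it with mutant 1 or mutant 4 left out (adjusted p = 0.0702 and 0.0577) or with equal weights (adjusted p = 0.0792). Ankrd1 is abundant in heart muscle. The summed signal of the cardiomyocyte markers was also higher on every mutant array than on any control, as given above. Singly, 2 of these 9 markers did not overlap between groups, and their part in the Ankrd1 values was not tested. The Ankrd1 promoter is shown beside that of Ccn1 because Ankrd1 was the one signature gene past the threshold. The 250 bases before its start (RefSeq, GRCm38.p6, chr19:36119845-36120094, minus strand) hold GGAATG at 2 places, in capitals, 210 to 205 and 123 to 118 bases before the start.
Ankrd1 promoter: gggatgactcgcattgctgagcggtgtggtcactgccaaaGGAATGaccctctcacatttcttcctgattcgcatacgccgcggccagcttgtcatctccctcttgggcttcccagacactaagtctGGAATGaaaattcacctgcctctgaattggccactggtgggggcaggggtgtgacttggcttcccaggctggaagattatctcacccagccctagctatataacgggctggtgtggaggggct

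The remaining signature genes moved in both directions. The list had 8 positive and 8 negative changes with a median of 0.05. Igfbp3, a binding protein of insulin-like growth factors, changed by 1.97 (SE 0.38, adjusted p = 0.0722). Its controls 1 to 4 read 6.06, 6.32, 6.68 and 8.0 and its mutants 8.65, 8.48, 8.40 and 9.19. The groups did not overlap, but only control 4 was above background among the controls, and the second Igfbp3 probe set changed by 0.58 (SE 0.43, adjusted p = 0.592). The first passed with control 1, 3 or 4 left out (adjusted p = 0.0188, 0.0154 and 0.0175), but not without controls 2 and 3 (1.84, adjusted p = 0.515). With control 1, 3 or 4 left out, 6.27%, 0.418% and 6.36% of all tested probe sets passed. The first Igfbp3 probe set also passed with the replicate block (1.87, adjusted p = 0.0465), a pseudocount of 64, either looser filter and the authors' scaling (adjusted p = 0.0412). In these settings 0.0577% to 0.233% of all tested probe sets passed. It passed with median-centred arrays as well, where 37.4% did. F3, the coagulation tissue factor, changed by 0.87 (SE 0.41, adjusted p = 0.398) with 1 control array above background. Crim1, a transmembrane protein that binds BMPs, changed by -0.55 (SE 0.26, adjusted p = 0.387) on its brightest probe set and by 0.47 on the other.

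The other 4 CCN genes were tested and 0 passed, against 0.0663% of all named genes. An unadjusted p under 0.05 was reached by 1 as lower, against 12.9% of all named genes in either direction. Ccn3, also called Nov, had the largest difference, with 7.36 ± 0.24 in the controls and 5.79 ± 1.02 in the mutants (SD, n = 4 each). Its change was -1.52 (SE 0.55, adjusted p = 0.307), mutant 1 lay within the control range, and 1 of the 4 mutant arrays was above background. The other Ccn3 probe set changed by -0.07 (SE 0.50). Ccn4, or Wisp1, changed by 0.12 (SE 0.18, adjusted p = 0.812) on its brightest probe set, and by 1.39 (SE 0.44, adjusted p = 0.260) on one above background on a single control array. Ccn5, or Wisp2, changed by -0.36 (SE 0.63, adjusted p = 0.840), and by 0.23 without controls 2 and 3.

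**Figure D4:**
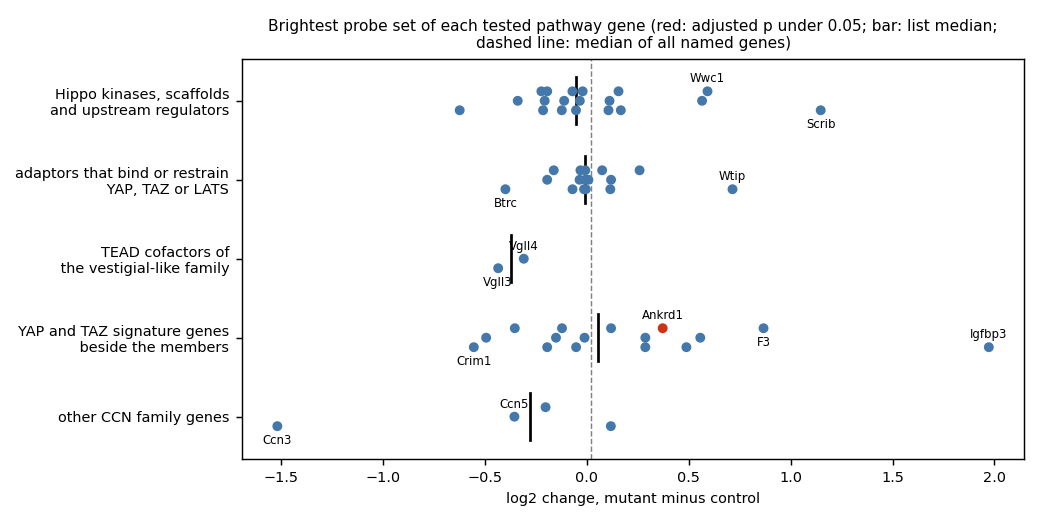
Log2 change, mutant minus control, of the brightest probe set of each tested gene in 5 lists of the pathway, with the list median as a bar and the median of all named genes, 0.02, as a dashed line. Ankrd1 alone is red, for an adjusted p under 0.05, and the value drawn for Scrib is a fitted one whose control arrays were all below background.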

How the data were processed

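Labelled RNA from 50 ng per pool was hybridised to Affymetrix whole-genome arrays. The authors deposited 1 linear intensity per probe set, and the submitters' processing notes name MAS5 without a version. Intensities were taken as log2(signal + 16), which understates changes of dim genes, and quantile normalized. Array controls and the lowest 40% of probe sets by mean were left out, which left 27022. A signal was above background when it lay over the 90th percentile of the array's 27 bacterial control probe sets. Groups were compared with limma 3.58.1 in R 4.3.3 with array weights, trend and robust settings, two-sided, and Benjamini-Hochberg adjustment over all tested probe sets at 0.05. Probe sets under the filter got an exact permutation test, whose smallest p is 0.0286. Symbols came from the platform annotation, checked by Entrez ID against RefSeq (34754 of 34958 matched, 0 changed).

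All 10 members are named on every probe set, and from each list every gene past the threshold on its brightest probe set and 3 more with the smallest p. Members and lists were chosen with earlier results of these data known. On simulated arrays of 27022 probe sets with 200 changed, this fit recovered 8.5% of log2 changes of 0.5, 33.5% of 1 and 72.5% of 2, with 1, 4 and 2 false calls. The simulated noise was independent between probe sets and held no raised background on controls 2 and 3. These figures therefore need not hold for the real arrays. Same-numbered arrays of both groups had correlations of their deviations of -0.11, 0.01, -0.13 and 0.17, so numbers were not taken as pairs. The number of arrays limits the precision. Alternatives were other scalings, pseudocounts, filters and weights, a replicate block, and fits with arrays left out.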

Additional observations from a re-analysis of the deposited data

Results flagged for a closer look

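Each group of 4 arrays was searched for a single array far from the others, over 48 groups of member values, and 2 were found, where chance alone picks out about 1 group in 20. The bright Wwtr1 probe set read 11.73 on mutant 1, above the other 3 mutants at 11.64 to 11.65, a gap of under 0.1 on the log2 scale. Lats1 read 8.10 on control 2 on its bright probe set, below the other controls at 8.92 to 9.06, and control 2 is one of the 2 arrays with raised background.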

How the results depend on the processing

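No member was called with another pseudocount, another filter, equal weights, the authors' scaling, the replicate block or without controls 2 and 3. With arrays centred on their medians and changes taken relative to the median shift of 1.13, 5 member probe sets were higher and 3 lower. Higher were Ccn2, Lats2 1437101_at and Ccn1 1416039_x_at, 1442340_x_at and 1457823_at, and lower were Yap1 1416487_a_at, Tead3 and Lats2 1425420_s_at. Over all probe sets that scaling gave 3257 higher and 6862 lower, against 7 and 5. Leaving out 1 array at a time gave 0 to 3 higher members. The 3 without control 1 and without control 4 were Lats2 1437101_at, Ccn1 1442340_x_at and Ccn1 1457823_at, and without control 3 the 1 call was Wwtr1 1437155_a_at. Those fits called 1694, 1719 and 113 of all probe sets, against 12 with all arrays. Genes of the pathway lists called numbered 1, against 2 on the authors' scaling, 21 with median-centred arrays, 2 with a pseudocount of 64, 2 with no filter, 2 with the lowest 20% left out, 0 with equal weights, 0 without controls 2 and 3 under either weighting, 2 with the replicate block and 0 to 4 with 1 array left out. The replicate block left 0 members called and did not change the Ankrd1 call.

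Direction changed for 10 member probe sets, Ccn4 and Ccn5 under at least 1 alternative, and the cause was not tested. On the authors' scaling the changes were -0.00397 for Wwtr1 1417817_a_at, 0.0274 for Wwtr1 1417818_at, 0.00953 for Tead2, -0.25 for Lats1 1427679_at and -0.61 for Lats2 1425420_s_at. With median-centred arrays they were 0.41 for Yap1 1448363_at, 0.49 for Wwtr1 1417818_at, 0.47 for Tead2, -1.23 for Lats2 1425420_s_at and -0.10 for Ccn4. With no filter they were 0.024 for Tead2, -0.00301 for Lats2 1425420_s_at and -0.00965 for Ccn4, and Tead2 was 0.00763 with the lowest 20% left out. With equal weights they were -0.0376 for Tead1 1429556_at, 0.043 for Tead2, -0.0618 for Lats2 1425420_s_at, 0.046 for Ccn1 1438133_a_at and -0.18 for Ccn4. Without controls 2 and 3 they were -0.026 for Lats1 1427679_at (-0.25 with equal weights) and 0.23 for Ccn5 (0.42). With the replicate block they were -0.0692 for Lats2 1425420_s_at, -0.0318 for Ccn4 and 0.00115 for Ccn5. With 1 array left out, changes ran from -0.35 to 0.11 for Yap1 1416487_a_at, -0.11 to 0.12 for Tead1 1429556_at, -0.0642 to 0.16 for Tead2, -1.42 to 0.0387 for Tead3, -0.27 to 0.19 for Lats2 1425420_s_at, -0.24 to 0.0131 for Ccn1 1438133_a_at, -0.47 to 0.37 for Ccn4 and -1.42 to 0.21 for Ccn5. Signals near the background of controls 2 and 3 limit what these arrays show of dim members.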
